A study of Saccharomyces cerevisiae BY4741 with 5 samples.

Results

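Eukaryotic ribosomes are assembled in the nucleolus, where RNA polymerase I (Pol I) transcribes the large ribosomal RNA precursor and Pol III supplies the small 5S rRNA and the tRNAs. Assembly factors bind the precursor as it is made: the small subunit (SSU) processome, whose proteins carry the UTP names, folds and cleaves the small subunit part, while NOP, NOC and RRP proteins and DEAD-box helicases (DBP) act on either subunit, NSA and MAK proteins on the large subunit, and the exosome trims the ends. In yeast, the genes for these proteins are known to be transcribed together with the ribosomal protein genes in growing cells and to be repressed under stress. The 86 transcripts described here encode these assembly factors and subunits of Pol I and Pol III, apart from the helicase DBP1. They were taken by symbol (UTP, RRP, NOP, NOC, NSA, NUG, DBP, RPA or RPC with a number, and MAK5, MAK16, MAK21, MRT4 and NMD3, without the snoRNP proteins NOP1, NOP10, NOP56 and NOP58 and without the export factor DBP5), and all 86 such symbols had a row among the 5090 transcripts of the table. HCA4, whose synonym is DBP4, is not among them because its standard symbol differs.

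The values are CRAC counts, that is, the number of reads on each transcript after RNA was cross-linked by ultraviolet light to a tagged protein in living cells, purified with it and sequenced. The protein was Ssd1, a yeast RNA-binding protein, with a His–TEV–Protein A (HTP) tag at its C terminus, expressed from its own locus with the Kluyveromyces lactis SSD1 3′UTR behind it, in the BY4741 background. Clones 3 and 4 of this strain gave 1 library each after 16 min at 42°C and 1 each at 30°C, both in medium without tryptophan, and untagged BY4741 at 30°C gave the single control library. All 3 groups thus share the strain background, and temperature and tag differ together between the 42°C libraries and the control. According to the paper, the construct with the tag also held a URA3 selection cassette, so the tagged clones differ from the control in this too.

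Library totals at 42°C were 169549 counts for clone 3 and 413502 for clone 4, those at 30°C were 176962 and 111824, and the control's total was 3921. A transcript without counts could still have had up to 3, which is 7.26 to 26.8 CPM (counts scaled to a common total) in the Ssd1–HTP libraries and 765 CPM in the control, for counting error only. Of the marker genes of the strain, LEU2 and URA3 had no counts in any library, MET17 had 1, and HIS3, which the strain lacks in part, had 1 and 20 at 42°C, against 9 and 5 at 30°C and 0 in the control. Because the tagged clones hold the URA3 cassette, URA3 does not mark the strain in their libraries. Ribosomal protein transcripts (137) took 2.0 and 3.15% of counts at 42°C, against 11.5 and 10.8% at 30°C and 17.4% in the control.

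Fewer counts fell on the assembly and polymerase transcripts at 42°C than at 30°C in both clones. Together they took 371 of the counts for clone 3 and 643 for clone 4 at 42°C, against 1400 for clone 3 and 1065 for clone 4 at 30°C. As shares of each library these were 0.219% (exact Clopper-Pearson 95% interval 0.197 to 0.242) and 0.156% (0.144 to 0.168) at 42°C, against 0.791% (0.750 to 0.834) and 0.952% (0.896 to 1.01) at 30°C. The temperatures did not overlap, and the gap was larger than the spread between clones. The mean share was 0.187% ± 0.0448 at 42°C and 0.872% ± 0.114 at 30°C (SD, n = 2 each), 4.66-fold lower at 42°C. The share at 42°C was 0.277 times that at 30°C in clone 3 and 0.163 times in clone 4. With 2 libraries at each temperature, the exact permutation test (two-sided) cannot go below p = 0.333, which it gave here. Because RNA-seq was not analysed here, fewer molecules of a transcript and less capture per molecule cannot be told apart, for this and for each result below. Shares, CPM and fold changes are also relative to the other transcripts of a library. The paper cites earlier work in which total Ssd1 binding to RNA rose markedly after this heat shock. A lower value can thus occur without a decrease in absolute terms, which was not tested.

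The lower share at 42°C was spread over more of the transcripts than the summed counts alone show. At 42°C 35 and 49 of the 86 transcripts had counts, against 73 and 65 at 30°C and 8 in the control. Of all 5090 transcripts, 3799 and 4486 had counts at 42°C, against 4026 and 3458 at 30°C and 560 in the control. The deepest library was that of clone 4 at 42°C. Of the 86, 28 had counts at 30°C and none at 42°C, and RRP43 alone had counts at 42°C and none at 30°C. The matching numbers over all transcripts were not computed, so these are a description. No library held counts for RRP36 and NOP53. CPM in both 42°C libraries lay below both 30°C libraries for 43 of 86 (50.0%), beside 21.6% of all 5090 transcripts. CPM lay above both 30°C libraries for 2 (2.33%, beside 21.2% of all), namely UTP21 and RRP43, which were chosen after their values were seen. UTP21, a subunit of the UTP-B complex of the SSU processome, had 8 and 5 counts at 42°C, against 0 and 1 at 30°C. RRP43, a core subunit of the exosome, had 4 and 18 at 42°C, against 0 and 0 at 30°C.

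**Figure D1:**
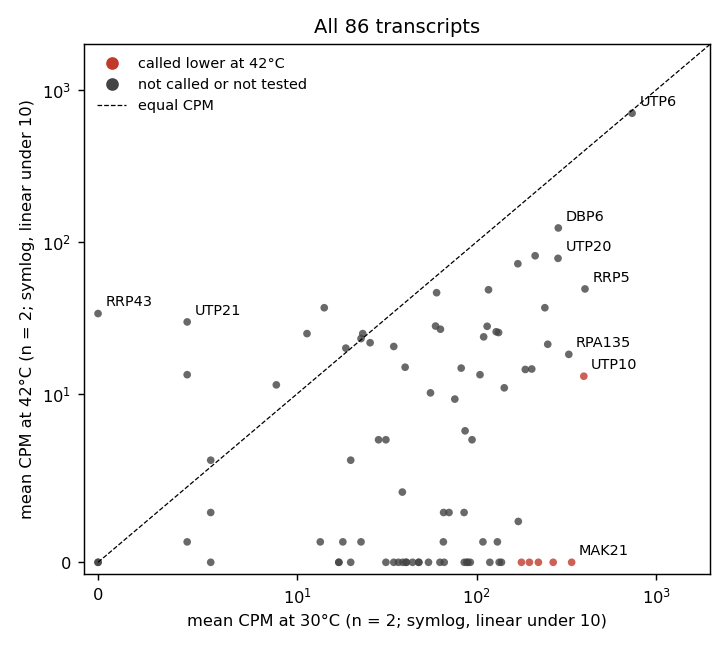
Mean CPM of the 86 transcripts at 42°C (vertical axis) against 30°C (horizontal axis), n = 2 libraries each, both axes linear under 10 and logarithmic above, with a dashed line at equal CPM and the 6 transcripts called lower at 42°C in red. Most points lie below the line, 30 lie at 0 on the vertical axis, and UTP6 lies on the line at the upper right.

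Other gene groups of the pathway differed by more or by less than the 86. A list of 107 other assembly factors, Pol I and Pol III subunits and their transcription factors took 0.419 and 0.361% of counts at 42°C, against 0.969 and 0.853% at 30°C and 1.10% in the control, 2.34-fold lower at 42°C. The 8 snoRNP proteins, which are parts of the particles that guide and carry out rRNA modification, took 0.0171 and 0.0114% at 42°C, against 0.167 and 0.160% at 30°C, 11.5-fold lower at 42°C. Each of these groups was lower in both 42°C libraries than in both 30°C libraries, with the same smallest p of 0.333. Set against the ribosomal protein transcripts within each library, the 86 transcripts had 10.9 and 4.93% as many counts at 42°C, against 6.88 and 8.81% at 30°C, so that the temperatures overlapped (log2 difference -0.08, exact permutation p = 1.00). Without clone 4 at 42°C this difference was 0.49, and without clone 4 at 30°C it was 0.09. The 85 without UTP6, which is described below, had 6.68 and 3.18% at 42°C, against 6.47 and 7.88% at 30°C. The temperatures still overlapped (log2 difference -0.63, exact permutation p = 0.667). Set against the other pathway genes, the 86 transcripts had 52.3 and 43.1% as many counts at 42°C, against 81.7 and 112% at 30°C (log2 difference -1.01, p = 0.333, the smallest the exact permutation test allows). Set against the snoRNP proteins, they had 1279 and 1368% as many at 42°C, against 475 and 595% at 30°C, which is the opposite direction (log2 difference 1.32, exact permutation p = 0.333). Without UTP6 the log2 difference was -1.56 relative to the other pathway genes and 0.77 relative to the snoRNP proteins.

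**Figure D2:**
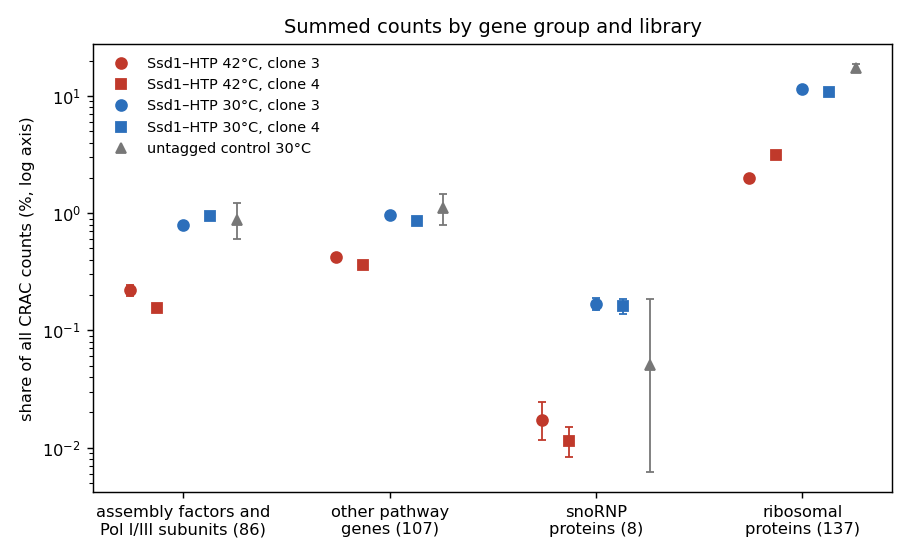
Share of all CRAC counts (percent, logarithmic axis) on 4 groups of transcripts in each library, with exact Clopper-Pearson 95% intervals for counting error as bars; circles are clone 3, squares clone 4 and the triangle the control. In every group both 42°C libraries lie below both 30°C libraries.

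The test of single transcripts compared the 42°C and 30°C counts with edgeR's quasi-likelihood test over the 2837 transcripts that averaged 10 or more counts across the 4 Ssd1–HTP libraries. Of the 86, 24 reached this minimum, from UTP6 down to NOP6 with a mean of 10.8 and NOP14 with 10.0, and RPC82 and RPC34 lay just outside with 9.75 each. Among the 24, 15 reached a mean of 10 at 30°C but not at 42°C, 0 the other way and 9 at both. Those 15 thus passed the minimum through their 30°C counts, and the counts over the 24 are a description. At an adjusted p under 0.05, 6 fell and 0 rose, beside 3.45% lower and 3.81% higher among all transcripts tested. All 6 were among the 15 that passed the minimum through their 30°C counts, so setting them beside these shares is not a test. At an unadjusted p under 0.05 there were 14, each lower at 42°C, beside 10.2% lower and 10.2% higher among all 2837. The log2 fold change was below 0 for 23 of the 24, and the median was -3.27, also with the transcripts without counts at 42°C set to their bound, beside 0.13 over all tested. With DESeq2 10 were lower, beside 5.78% lower and 5.25% higher among all, and with the clone as a block 8 were lower, beside 5.08% lower and 5.29% higher. Without clone 4 at 30°C 1 was called, with RPC40 and RRP12 then under the minimum, and without clone 4 at 42°C 3 were.

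**Figure D3:**
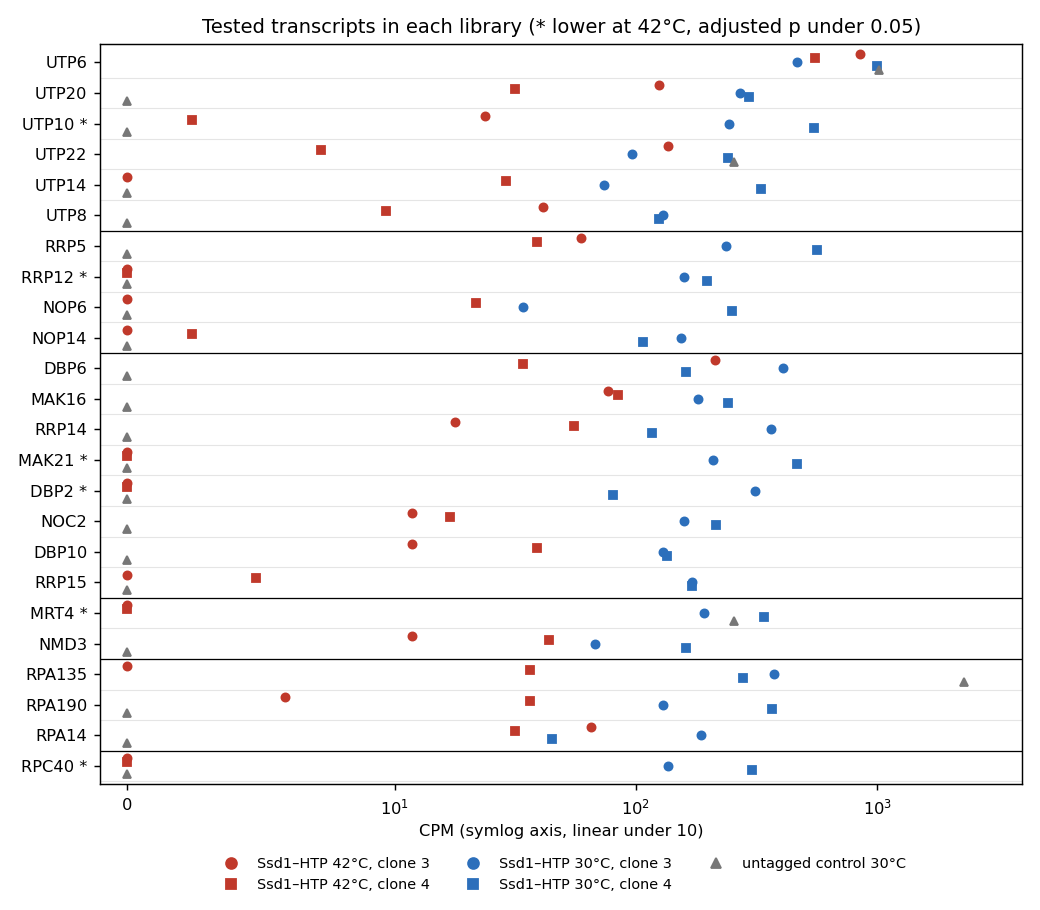
CPM of the 24 tested transcripts in each library (horizontal axis, linear under 10 and logarithmic above), grouped from top to bottom into SSU processome, other small subunit, nucleolar large subunit and late large subunit factors, Pol I subunits and the shared subunit RPC40; asterisks mark the 6 called lower at 42°C. For 5 of these 6 both 42°C libraries lie at 0, and UTP6 is to the right of every other transcript in all Ssd1–HTP libraries.

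In the SSU processome, the 18 UTP transcripts took 0.140 and 0.0677% of counts at 42°C, against 0.188 and 0.302% at 30°C and 0.153% in the control. Most of what was left at 42°C lay on UTP6, and the other 17 UTP transcripts took 0.0549 and 0.0126% at 42°C, against 0.141 and 0.202% at 30°C, 5.09-fold lower at 42°C. UTP10 encodes a large subunit of the UTP-A complex, which binds the nascent precursor early. It had 4 and 1 counts at 42°C, against 43 and 61 at 30°C and 0 in the control. Both 42°C libraries lay far below both 30°C libraries, and UTP10 fell by 5.06 ± 1.11 on the log2 scale (SE, edgeR with Benjamini-Hochberg adjustment, adjusted p = 0.0324). Its adjusted p ranged between 2.7e-04 and 0.137 over the alternatives, and it was not called without clone 4 at either temperature. UTP10 lies at chrX:211875-217334, with default-length UTRs in the authors' annotation.

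UTP6, a subunit of the UTP-B complex, stood apart. It had 144 and 228 counts at 42°C, against 82 and 112 at 30°C and 4 in the control, or 849 and 551 CPM at 42°C, against 463 and 1002 CPM at 30°C. The temperatures overlapped, clone 3 being higher and clone 4 lower at 42°C. The log2 fold change was 0.02 ± 0.52 (SE, edgeR adjusted p = 0.995), and its sign turned under 4 alternatives. UTP6 carried 38.8 and 35.5% of the counts of all 86 transcripts at 42°C, against 5.86 and 10.5% at 30°C. Per length, as TPM (counts over interval length, scaled to a fixed sum), it was first among the 86 in each Ssd1–HTP library except clone 3 at 30°C, where it ranked 2. It was also the only transcript of the 86 above 765 CPM in any Ssd1–HTP library. Its 4 control counts, however, are 1020 CPM, above its value in each Ssd1–HTP library. Against the control, the log2 fold change of UTP6 was -0.48 at 30°C and -0.55 at 42°C. With 4 counts in 1 control library, whether UTP6 lay above or below the control cannot be told. Without UTP6 the summed share of the other 85 was 0.134 and 0.10% at 42°C, against 0.745 and 0.852% at 30°C, 6.82-fold lower at 42°C.

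Of the UTP transcripts that were tested and did not pass, UTP20, which encodes a HEAT-repeat protein, came closest to UTP6 in counts. It had 21 and 13 counts at 42°C, against 48 and 33 at 30°C, and its CPM did not overlap (log2 fold change -1.87 ± 0.86, edgeR adjusted p = 0.273). UTP22, a subunit of the UTP-C complex, had 23 and 3 counts at 42°C, against 17 and 27 at 30°C, and its CPM overlapped because of clone 3. UTP14, which activates a helicase of the processome, had 0 and 12 counts at 42°C, against 13 and 37 at 30°C, and was called only without clone 3 at 30°C. UTP8, another UTP-A subunit, had 7 and 4 counts at 42°C, against 23 and 14 at 30°C, with both 42°C libraries lower in CPM (edgeR adjusted p = 0.417).

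Among the 12 other small subunit factors, the summed share was 0.00767 and 0.0102% at 42°C, against 0.0882 and 0.138% at 30°C and 0 counts in the control, 12.7-fold lower at 42°C. RRP12, a HEAT-repeat protein needed for nuclear export of ribosomal subunits, had 0 counts in both 42°C libraries, against 28 and 22 at 30°C. Its mean was at least 13.7-fold lower at 42°C, with the absence of counts taken as 3 per library (edgeR adjusted p = 0.0363, 0.00231 with DESeq2). The call was lost without clone 4 at 42°C. This and the later bounds compare means and leave out the spread between clones at 30°C, so a single clone can lie below them. Without either 30°C library RRP12 was under the minimum for the test. The RRP12 interval (chrXVI:529603-533533) overlaps that of TAF3 on the other strand by 10 nt. RRP5, a large RNA-binding protein needed for both subunits, was the most counted of these 12. It had 10 and 16 counts at 42°C, against 42 and 63 at 30°C and 0 in the control. All 42°C values lay below the 30°C values, with a log2 fold change of -2.95 ± 0.78 that did not pass (edgeR adjusted p = 0.0621, 0.0468 with the clone as a block and 0.0263 with DESeq2). NOP14, which joins the processome with NOC4, had 0 and 1 counts at 42°C, against 27 and 12 at 30°C, and was called with DESeq2 alone (adjusted p = 0.0373, edgeR 0.110).

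The 25 nucleolar large subunit factors took 0.0372 and 0.0435% of counts at 42°C, against 0.280 and 0.256% at 30°C, 6.64-fold lower at 42°C. The control had 18 counts on them, or 0.459%, all on DBP7, NOP4 and NOP7. MAK21 (also known as NOC1) works with NOC2 on early large subunit precursors and carried the smallest adjusted p of the 86. It had 0 counts in both 42°C libraries, against 37 and 52 at 30°C and 0 in the control. Its mean was at least 26.0-fold lower at 42°C (edgeR adjusted p = 0.0148, 4.5e-05 with DESeq2), and the call was lost without clone 4 at 30°C. MAK21 lies at chrIV:570599-573793, its 5′UTR is 50 nt long, and no other interval of the table overlaps it. DBP2, a DEAD-box helicase that acts on mRNA as well as on rRNA, had 0 counts in both 42°C libraries, against 55 and 9 at 30°C. The clones differed widely at 30°C (311 and 80.5 CPM), yet both lay above 42°C. The mean was at least 15.3-fold lower at 42°C (edgeR adjusted p = 0.0377). The call was lost without clone 4 at 42°C, and without clone 3 at 30°C DBP2 was under the minimum for the test.

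NOC2, the partner of MAK21, had 2 and 7 counts at 42°C, against 28 and 24 at 30°C (log2 fold change -3.50 ± 1.10, edgeR adjusted p = 0.110). RRP15, needed for early large subunit processing, had 0 and 2 counts at 42°C, against 30 and 19 at 30°C, a log2 fold change of -5.43 ± 1.49 that missed the threshold (edgeR adjusted p = 0.0693, DESeq2 0.0217). Both were lower in each 42°C library than in each 30°C library. RRP14, which takes part in both subunits, had 3 and 23 counts at 42°C, against 64 and 13 at 30°C (edgeR adjusted p = 0.225). MAK16, another early factor, had 13 and 35 at 42°C, against 32 and 27 at 30°C (edgeR adjusted p = 0.475), and the helicase DBP10 had 2 and 16 at 42°C, against 23 and 15 at 30°C (0.421). None of the 3 overlapped in CPM, the 42°C libraries being lower. DBP6, a helicase of early large subunit assembly and the most counted of these 25, had 36 and 14 counts at 42°C, against 72 and 18 at 30°C. Its CPM overlapped, at 212 and 33.9 at 42°C, against 407 and 161 at 30°C (edgeR adjusted p = 0.577), and 144 nt of its interval overlap ZRG17 on the other strand.

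Of the 5 late large subunit and export factors, MRT4 and NMD3 held most counts. MRT4 is the paralog of ribosomal stalk protein P0 that holds its place on the precursor. It had 0 counts in both 42°C libraries, against 34 and 38 at 30°C and 1 in the control. Its mean was at least 20.5-fold lower at 42°C (edgeR adjusted p = 0.0189, 2.1e-04 with DESeq2). Of the alternatives in which it could be tested, only the 1 without clone 4 at 30°C lost the call. NMD3, the adaptor that carries the large subunit out of the nucleus, had 2 and 18 counts at 42°C, against 12 and 18 at 30°C, which as CPM is 11.8 and 43.5 at 42°C, against 67.8 and 161 at 30°C. The CPM did not overlap, and the adjusted p was 0.583 by edgeR.

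**Figure D4:**
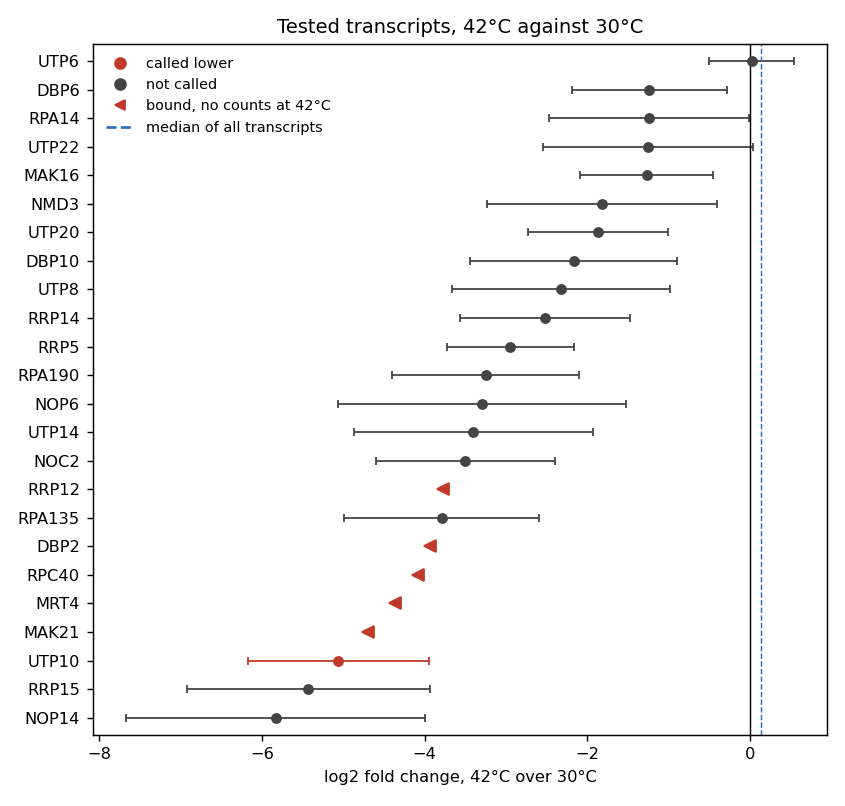
Log2 fold change (42°C over 30°C) of the 24 tested transcripts with its standard error from edgeR, called lower in red; triangles give the bound for the 5 transcripts with no counts at 42°C, and the dashed line is the median of all 2837 transcripts tested, 0.13. UTP6 lies at 0.02 and all others lie below 0.

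The 7 Pol I subunits (RPA) took 0.00708 and 0.0106% of counts at 42°C, against 0.109 and 0.106% at 30°C and 0.230% in the control, 12.1-fold lower at 42°C than at 30°C. RPA135, the second largest subunit, had 0 and 15 counts at 42°C, against 66 and 31 at 30°C and 9 in the control. RPA190, the largest subunit, had 1 and 15 counts at 42°C, against 23 and 41 at 30°C and 0 in the control. For both genes clone 4 was the higher at 42°C and still lay below both 30°C libraries in CPM. RPA135 had a log2 fold change of -3.79 ± 1.20 (edgeR adjusted p = 0.112), and was called with the clone as a block (0.0130) and with DESeq2 (0.0228). RPA190 had -3.25 ± 1.15 (edgeR adjusted p = 0.150, 0.0905 with the block), and was called only without clone 3 at 30°C. RPA14, a stalk subunit, had 11 and 13 counts at 42°C, against 33 and 5 at 30°C, and its CPM overlapped. RPA43, RPA49, RPA34 and RPA12, too low to be tested, had 0 or 1 counts in each 42°C library and up to 32 at 30°C.

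The 11 RPC transcripts, which encode Pol III subunits and subunits shared with Pol I, took 0.0106 and 0.00629% of counts at 42°C, against 0.0774 and 0.0733% at 30°C, 8.92-fold lower at 42°C, and had 0 counts in the control. RPC40, the assembly subunit shared by Pol I and Pol III, was the only one tested. It had 0 counts in both 42°C libraries, against 24 and 34 at 30°C. Its mean was at least 16.9-fold lower at 42°C (edgeR adjusted p = 0.0279, 8.1e-04 with DESeq2). The call was lost without clone 4 at 42°C, and without clone 4 at 30°C RPC40 was under the minimum for the test. RPC19, its partner in both enzymes, had 0 and 0 counts at 42°C, against 9 and 2 at 30°C. Of the initiation subunits special to Pol III, RPC34 had 8 and 0 counts at 42°C, against 18 and 13 at 30°C, and RPC82 had 0 and 11 at 42°C, against 13 and 15 at 30°C. In CPM, 7 of the 11 RPC transcripts and 5 of the 7 RPA transcripts lay lower in both 42°C libraries than in both 30°C libraries, beside 21.6% of all 5090 transcripts.

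The 7 exosome subunits differed least between temperatures. They took 0.0106 and 0.0123% of counts at 42°C, against 0.0153 and 0.0188% at 30°C and 0 counts in the control, 1.48-fold lower at 42°C. None reached the minimum for the test. RRP6, the nuclear exonuclease of the complex, had the highest mean CPM, with 1 and 0 counts at 42°C, against 1 and 15 at 30°C, so nearly all its counts came from clone 4 at 30°C. Some of the 86 had counts in only 1 library of a temperature: 9 had 10 or more counts in one 30°C library and 0 in the other, and 6 did so at 42°C. The matching numbers over all transcripts were not computed. DBP1, a helicase outside these groups, had 8 and 1 counts at 42°C, against 4 and 0 at 30°C.

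**Figure D5:**
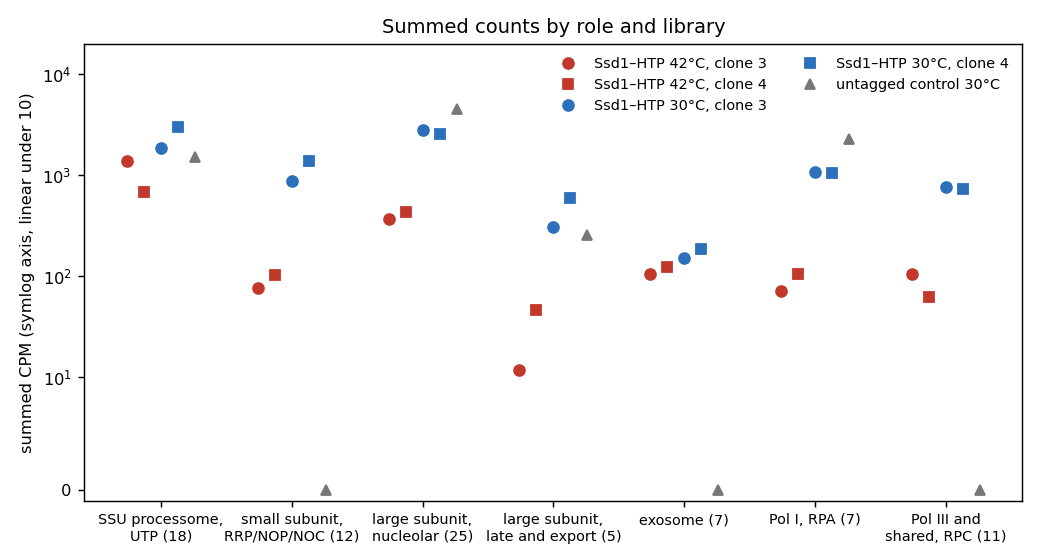
Summed CPM by role (vertical axis, linear under 10 and logarithmic above) in each library, with the number of transcripts in brackets; DBP1 is not shown. The 42°C libraries lie below the 30°C libraries in every role, by 1.48-fold for the exosome and 15.6-fold for the late large subunit factors.

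Of the 107 other pathway genes, 34 were tested, and 1 (2.94%) was called lower and 0 higher, a share near that of all transcripts tested (3.45% lower, 3.81% higher). This was SDA1, a late large subunit factor, with 1 and 0 counts at 42°C, against 31 and 25 at 30°C (log2 fold change -6.17 ± 1.52, edgeR adjusted p = 0.0482). The log2 fold change was below 0 for 22 of the 34, with a median of -1.46. In CPM, 51 of the 107 (47.7%) lay lower in both 42°C libraries than in both 30°C libraries, and 8 (7.48%) lay higher. The lower share is near the 50.0% of the 86, beside 21.6% of all 5090 transcripts. It was 94.9% for the ribosomal protein and 100% for the snoRNP protein transcripts. The most counted of the list was ESF1, a small subunit factor, with 124 and 149 counts at 42°C, against 53 and 42 at 30°C (0.75 ± 0.55, edgeR adjusted p = 0.549). IMP4, a processome subunit, had 51 and 127 counts at 42°C, against 99 and 62 at 30°C (adjusted p = 0.483 by edgeR). REA1, the large ATPase also known as MDN1, had 24 and 68 at 42°C, against 108 and 52 at 30°C (adjusted p = 0.128 by edgeR). HMO1, which binds rDNA, and BDP1, a subunit of the Pol III factor TFIIIB, had adjusted p-values of 0.852 and 0.457 by edgeR, with BDP1 at 79 and 69 counts at 42°C, against 21 and 19 at 30°C.

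In the untagged control the 86 transcripts took 34 of the control's 3921 counts, 0.867% (exact Clopper-Pearson 95% interval 0.601 to 1.21), and this interval includes the shares of both 30°C libraries and lies above those of both 42°C libraries. With 1 control library the shares were not tested. The 34 counts lay on 8 transcripts: 9 each on RPA135 and DBP7, a large subunit helicase, 5 on NOP4, a large subunit RNA-binding protein, 4 each on UTP6 and NOP7, and 1 each on MRT4, UTP22 and UTP5. At 30°C against the control, 41 were tested in edgeR and 0 passed in either direction (2.44% of all tested were lower and 0.887% higher than the control). At an unadjusted p under 0.05 there was 1, RPA135 (log2 fold change -2.81, adjusted p = 0.279), beside 8.55% lower and 3.59% higher among all. At 42°C against the control, 11 were tested and 0 passed, with 3.15% of all lower and 1.15% higher, and 0 reached an unadjusted p under 0.05, beside 8.27% lower and 4.20% higher among all. With TMM factors in place of total counts as library sizes, 1 of all transcripts tested was lower and 77 higher at 30°C than in the control, against 55 and 20, and 3 were lower and 200 higher at 42°C, against 96 and 35, with 0 of the 86 called. Of the 41, 36 had no counts in the control, where counts of 0 allow up to 765 CPM, so the absence of calls says little about these transcripts. The CPM of the 6 transcripts called lower at 42°C lay below that limit also at 30°C, so that a level above the control was not detectable for them at this depth.

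In length and annotation the 86 transcripts were near the rest of the table, as a description with no test. Their median length was 1583 nt, against 1499 nt for all 5090 transcripts. For the 80 with mapped ends the median 5′UTR was 41.0 nt, against 47.0 nt for all with mapped ends, although it ran over 100 nt in only 6 (7.50%), against 21.1% of all. RRP12 and UTP22 were among these 6, with 120 and 268 nt. The intervals of 27 of the 86 (31.4%, beside 34.1% of all) overlap that of another transcript, 6 of them among the 24 tested, and the sources used here do not say whether counting used strand, so reads in these overlaps cannot be assigned to a gene. Their sequences were not analysed here.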

How the data were processed

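The values are read counts, which the authors deposited without normalization. Before that they trimmed adapters (flexbar), demultiplexed the libraries, removed PCR duplicates using the random part of each barcode, mapped the reads (Novoalign) and assigned them to transcript intervals (multiBamCov). The genome build named in the submitters' processing notes is sacCer3, and coordinates are those of the deposited table. Transcripts without mapped ends have default UTRs of 25 nt (5′) and 125 nt (3′). All 5090 loci were given symbols through RefSeq (assembly R64).

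For 42°C against 30°C, edgeR 4.0.16 (R 4.3.3) was run on the counts with TMM factors, its quasi-likelihood test, a minimum mean count of 10 and Benjamini-Hochberg adjustment over 2837 transcripts at a threshold of 0.05. Its SE is the log2 fold change over the square root of F. Contrasts with the control used all 5 libraries, with total counts as library sizes, and their spread comes from the Ssd1–HTP libraries alone. CPM and TPM were computed from total counts and interval lengths. Summed shares were compared by exact permutation over libraries. DESeq2 1.42.0 was an alternative, as were other normalizations, minimums and denominators, and leaving out each library. With 1 library left at a temperature, that library is assumed to vary like the others. Python 3.11.15 with scipy 1.17.1, pandas 2.3.3 and matplotlib 3.10.9 made the tables and figures.

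The transcripts, role groups and lists were chosen with earlier results of these data known. Named are those called, the 12 with most CPM, the most counted of each role, the largest changes, the 3 with most counts in the control, and of the other pathway genes the 5 with most CPM and those called. Others are named as examples, chosen after their values were seen.

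Replicate numbers pair the samples, because both samples of a number come from the same clone and were combined during library preparation. The clone difference at 42°C had Pearson's r = -0.024 with that at 30°C across 2837 transcripts.

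The test was tried on simulated data for 42°C against 30°C, with 2761 transcripts tested: it recovered 9 of 64 transcripts changed 4-fold, 49 of 64 changed 16-fold and 58 of 66 changed 64-fold, with 2 false calls.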

Additional observations from a re-analysis of the deposited data

How the results depend on the processing

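The summed share kept its direction under each denominator, choice of transcripts and library left out, with ratios of 42°C to 30°C from 0.147 to 0.251. The number of the 86 transcripts called lower, 6, was 10 without a count minimum, 10 with DESeq2, 8 with the replicate block, 0 with a mean count of at least 50, where 1 was tested, and 1 to 7 with 1 library left out. Calls of all 6 were kept with total counts, RLE factors, no minimum, a minimum of 50 CPM, the replicate block, DESeq2 and without clone 3 at 42°C. The median log2 fold change was -3.56 with the replicate block, -0.11 with a mean count of at least 50, and -3.89 to -2.37 with 1 library left out. The log2 difference relative to ribosomal protein transcripts was -0.66 to 0.49 with 1 library left out, being 0.49 without clone 4 at 42°C and 0.09 without clone 4 at 30°C. Without UTP6 it was -0.63. The number lower at 42°C than in the control was 0 to 1. For UTP6 the log2 fold change was -0.06 with total counts, -0.11 with a mean count of at least 50, and -0.45 to 0.65 with 1 library left out, being -0.16 without clone 3 at 42°C and -0.45 without clone 3 at 30°C. Of 230 alternatives of single transcripts, 206 kept direction and side of the threshold, 13 gained a call, 7 lost it and 4 turned sign. Over all transcripts, 164 were lower with DESeq2 and 33 without clone 4 at 30°C, against 98, and 193 were higher without clone 3 at 30°C and 174 without a count minimum, against 108. The cause of these changes was not tested. Motifs upstream of the genes were not analysed here. Depth limits the control most, where 3 counts are 765 CPM.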
